A study of Mus musculus with 4 samples.

Results

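The genes described here are 32 genes of mitosis and chromosome segregation, chosen by symbol from a fixed list and not by their values. They are 32 of the 55536 genes in the deposited gene tables, and all 32 were found. The cells were macrophages grown from the bone marrow of C57BL/6J mice, a standard inbred strain, and cultured macrophages of this kind are derived from marrow precursors that still divide. Before lysis, the cells of every library had been exposed for 60 minutes to a stimulus, at 100 ng/mL, and polyadenylated RNA of the whole cells was sequenced. The label fields disagree on the stimulus, which is lipid A (the toxic moiety of bacterial lipopolysaccharide) in the description and lipoprotein A elsewhere, so it is left unnamed. The 4 libraries are numbered as biological replicates 1 to 4, carry the same donor label, and form a single group. No unstimulated cells were analysed here, so no value below measures a response to the stimulus, and the comparisons are between libraries and between genes.

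Cells that divide switch on the genes of mitosis late in the cycle. Cyclins A and B activate the kinase Cdk1 to start mitosis, the spindle attaches to chromosomes at kinetochores built on the centromere, the spindle checkpoint holds the cell until every chromosome is attached, and the anaphase-promoting complex (APC/C) then has securin and cyclin B destroyed. Many of these genes are repressed in resting cells by the DREAM complex and induced in dividing cells by B-Myb and FoxM1, through 2 kinds of promoter element: the CCAAT box bound by NF-Y and the cell cycle homology region (CHR). Resting macrophages in tissue seldom divide, whereas marrow cultures grown in macrophage colony-stimulating factor pass through a phase of division before they mature.

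The promoters are shown first, because the values below turn on whether the genes move as a group. RefSeq promoter windows (mouse build GRCm38.p6, which has the coordinates of mm10; 250 bases before to 50 bases after the start site, 300 bases in all) were found for 28 of the 32 genes. Ccna2, Aurkb, Kif20a and Tpx2 had no matched window. Both strands were searched, and a match on the minus strand reads as the reverse complement. The box CCAAT was present in 21 of the 28 genes (75.0%), against 41.1% of all 27018 genes with a window and 43.2% of the 9361 genes tested below that had one. TTTGAA or TTCGAA, the letters of the CHR, was present in 22 of 28 (78.6%), against 21.7% of all genes and 16.9% of those tested. Both kinds were present in 19 of 28 (67.9%), against 8.61% of all genes and 7.17% of those tested. In 41 genes of DNA replication, 33 with a window, the CHR letters were present in 6 (18.2%) and CCAAT in 21 (63.6%). The letters TTTCGCGC or TTTGGCGC, of the E2F site, were in 10 of those 33 (30.3%) and in 1 of the 28 mitosis genes (3.57%), against 0.929% of all genes. Most mitosis windows thus held the CHR letters and most replication windows did not; no test of that difference was made. A match is a string of letters and not a measured binding site.

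From these windows, 8 are printed from 100 bases before to 22 bases from the start site, with matches to CCAAT or the CHR letters in capitals, on either strand. Ccnb2, Cdk1, Cdc20, Ube2c and Top2a are genes whose levels differed by several fold between libraries, and Cenpa, Kif23 and Racgap1 carry the same 2 kinds of letters but had another order of libraries or a narrow range. They lie at Ccnb2 chr9:70421533-70421654 (minus strand), Cdk1 chr10:69352891-69353012 (minus strand), Cdc20 chr4:118437322-118437443 (minus strand), Ube2c chr2:164769829-164769950 (plus strand), Top2a chr11:99024168-99024289 (minus strand), Cenpa chr5:30666786-30666907 (plus strand), Kif23 chr9:61946778-61946899 (minus strand) and Racgap1 chr15:99651635-99651756 (minus strand).
Ccnb2: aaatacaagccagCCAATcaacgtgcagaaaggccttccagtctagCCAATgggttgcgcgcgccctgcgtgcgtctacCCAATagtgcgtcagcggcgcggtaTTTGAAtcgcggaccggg
Cdk1: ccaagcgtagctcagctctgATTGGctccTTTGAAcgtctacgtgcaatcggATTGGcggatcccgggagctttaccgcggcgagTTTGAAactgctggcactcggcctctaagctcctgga
Cdc20: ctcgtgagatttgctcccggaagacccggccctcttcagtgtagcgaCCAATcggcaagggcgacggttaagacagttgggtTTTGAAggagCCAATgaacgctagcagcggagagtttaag
Ube2c: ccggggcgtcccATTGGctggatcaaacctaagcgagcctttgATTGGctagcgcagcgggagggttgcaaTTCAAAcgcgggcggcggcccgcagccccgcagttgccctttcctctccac
Top2a: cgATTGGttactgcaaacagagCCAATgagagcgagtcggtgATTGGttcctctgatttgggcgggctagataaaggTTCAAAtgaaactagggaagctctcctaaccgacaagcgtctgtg
Cenpa: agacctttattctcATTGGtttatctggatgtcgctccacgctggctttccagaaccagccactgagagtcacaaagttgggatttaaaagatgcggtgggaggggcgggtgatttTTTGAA
Kif23: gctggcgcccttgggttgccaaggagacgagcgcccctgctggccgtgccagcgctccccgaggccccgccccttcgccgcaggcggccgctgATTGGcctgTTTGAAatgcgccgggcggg
Racgap1: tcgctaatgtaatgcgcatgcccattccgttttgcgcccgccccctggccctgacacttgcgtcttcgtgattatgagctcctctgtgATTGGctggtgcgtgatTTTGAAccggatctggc
In Cdk1, Cdc20, Ube2c and Top2a the CHR letters lie just before the start site, and in Ccnb2, Cenpa, Kif23 and Racgap1 just after it. Of the 28 genes, 19 had such a match within 40 bases of the start. At least 2 CCAAT were present in 14 of the 28, against 13.3% of all genes with a window. Mad2l1, Birc5, Nusap1 and Nuf2 held neither kind in this window.

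**Figure D1:**
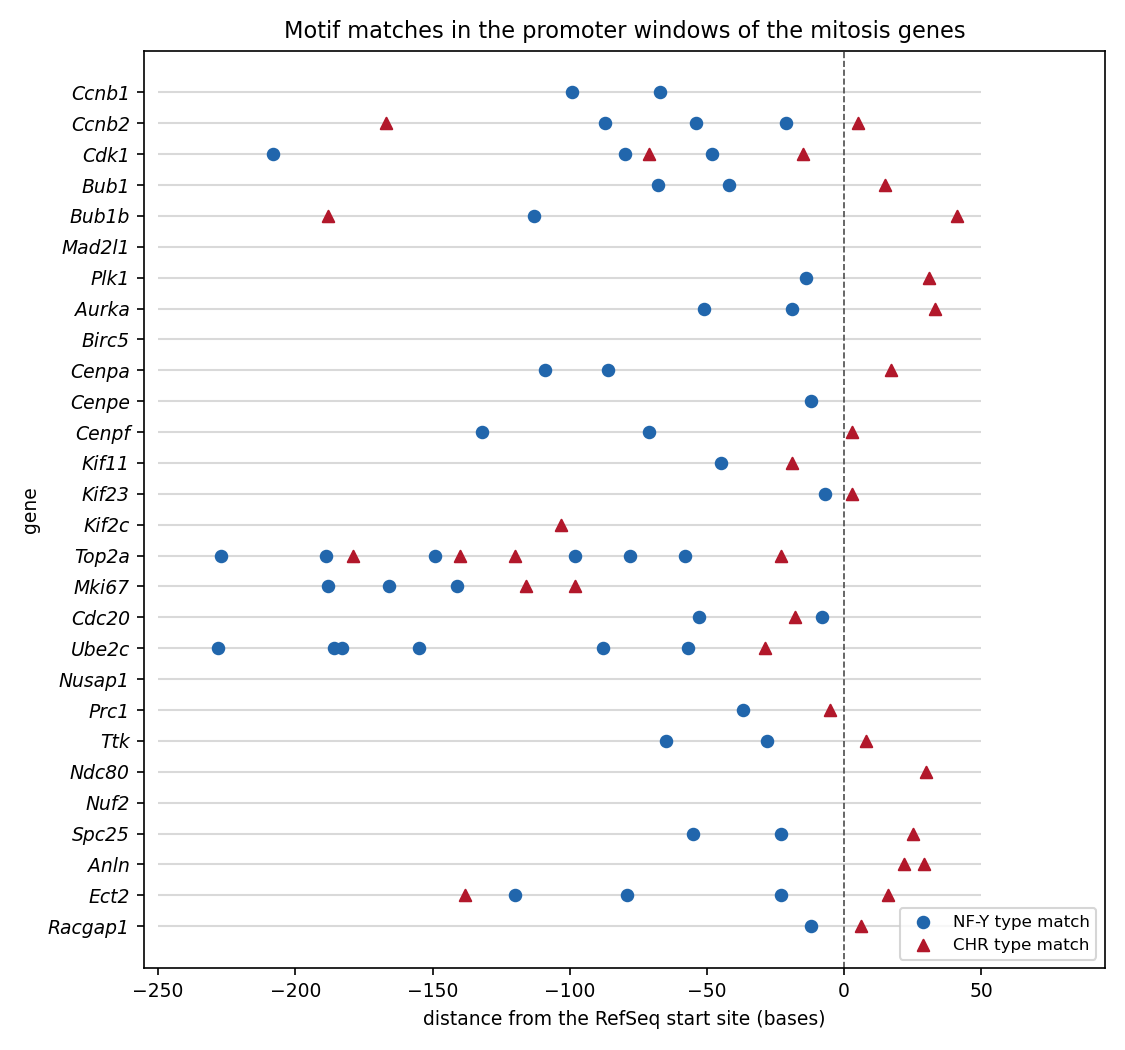
Positions of matches to the CCAAT box (circles, NF-Y type) and to the CHR letters (triangles) in the RefSeq windows of 28 mitosis genes, as the distance in bases from the start site (dashed line); where a gene has several windows the first is drawn. The triangles crowd within 40 bases of the start in 19 genes, and the circles lie upstream of it.

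Levels are given in TPM, a level per length of transcript scaled to the same total in each library, and differences between libraries on gene counts scaled by effective library size. The libraries held 26917324, 30042947, 35277710 and 39438414 counts in replicates 1 to 4. Replicates 1 and 2 list 6 read files each and replicates 3 and 4 list 4 each, and ribosomal RNA took 3.43% to 12.4% of counts. Of all genes, 12626 averaged 10 or more counts per library and were tested. A gene was called different between libraries where its 4 counts departed from counting error by chi-square (3 degrees of freedom, adjusted p under 0.05 over all those genes), and where its highest and lowest scaled counts were at least 2-fold apart. This test covers counting error only, and nothing in the labels says that the libraries came from separate animals or cultures.

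Most mitosis genes were low but present, and in 28 of the 32 the TPM of replicates 1 and 3 were both above those of replicates 2 and 4. This split is called the common order below, whichever of the 2 libraries on each side is higher, and 24.1% of all genes tested had it (24.3% in scaled counts, the scale on which it is counted for other lists). The reverse, with replicates 2 and 4 both above 1 and 3, was present in 3362 of the 12626 genes tested in scaled counts. Mean TPM ran from 0.807 for Cenpf to 54.3 for Cenpa, with a median of 3.45, and 16 of 32 genes had at least 1 TPM in every library, close to the 48.4% of all genes with a count. No gene was below 1 TPM in replicate 1 or replicate 3, while 13 were below it in replicate 2 and 13 in replicate 4. The call was made for 28 of 32 genes (87.5%), against 32.9% of all genes tested, and all 32 were past counting error, as were 88.6% of all genes. The median range between highest and lowest library was 6.33-fold, against 1.68-fold over all genes tested. Mki67, Kif23, Racgap1 and Aurkb were not called. In bulk RNA, fewer cells in mitosis and less RNA per cell cannot be told apart.

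**Figure D2:**
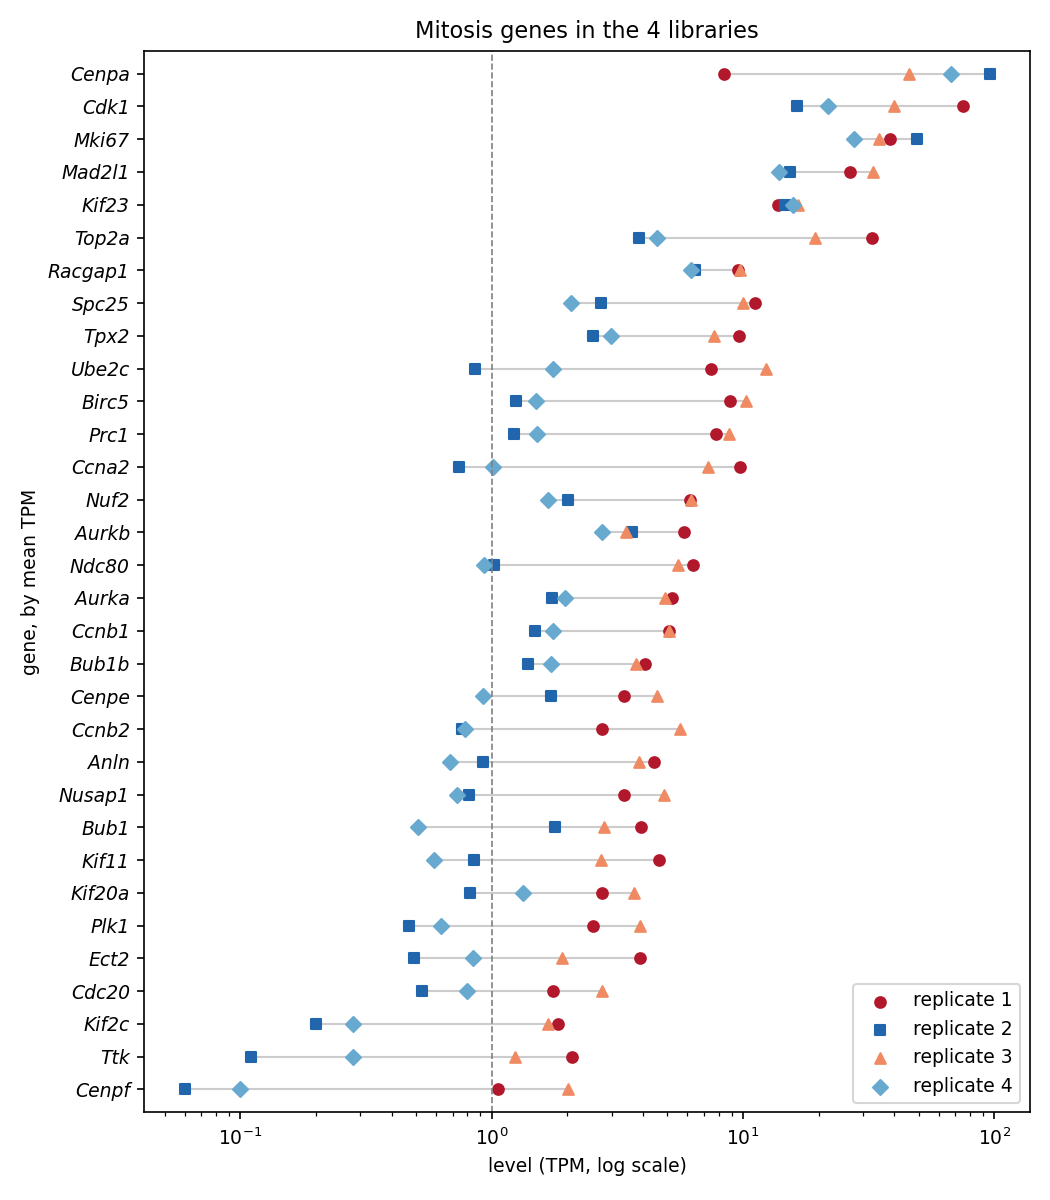
Levels (TPM, log axis) of the 32 mitosis genes in the 4 libraries, 1 point per library, ordered by mean TPM; grey lines join the lowest and highest library and the dashed line marks 1 TPM. Replicates 1 and 3 lie right of replicates 2 and 4 in 28 genes; Cenpa, Mki67, Kif23 and Aurkb are the exceptions.

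Among the cyclins and their kinase, all 4 genes were called. Ccna2, cyclin A2, which acts in S phase and at entry into mitosis, had 9.7, 0.74, 7.27 and 1.01 TPM in replicates 1 to 4, from 459, 39, 489 and 72 counts. Replicates 1 and 3 were far above the other 2, with a range of 12.8-fold in scaled counts. Ccnb1, cyclin B1, the main partner of Cdk1, had 5.07, 1.49, 5.08 and 1.75 TPM. Ccnb2, cyclin B2, had 2.74, 0.76, 5.63 and 0.78 TPM and was highest in replicate 3. Both B cyclins had replicates 1 and 3 above the other 2, as Ccna2 did. The range was 3.65-fold for Ccnb1 and 7.61-fold for Ccnb2, and without replicate 3 it was 3.43-fold and 3.46-fold. Cdk1, the kinase that drives mitosis, had 75.1, 16.5, 39.9 and 21.9 TPM, the highest mean of the 32 after Cenpa. Its range of 4.09-fold rested on replicate 1: without that library it was 1.96-fold and not called.

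Of the mitotic kinases, Plk1, polo-like kinase 1, which acts from entry to cytokinesis, had 2.53, 0.47, 3.89 and 0.63 TPM, a range of 8.48-fold (5.14-fold without replicate 3). Aurka, Aurora A, the kinase of spindle poles, had 5.2, 1.74, 4.89 and 1.95 TPM, a range of 2.93-fold. Birc5, survivin, a subunit of the chromosomal passenger complex, had 8.88, 1.25, 10.3 and 1.5 TPM, a range of 8.67-fold. In each of these 3 genes both replicate 1 and replicate 3 were above the other 2 libraries. Aurkb, Aurora B, the kinase of that same complex, had 5.81, 3.61, 3.41 and 2.75 TPM. It was highest in replicate 1 and nearly level across the rest, and its range of 1.81-fold was not called. The complex's other subunits, from the list of further kinetochore genes, were split likewise: Cdca8, borealin, had 9.77, 3.79, 8.92 and 3.24 TPM (2.78-fold, called), and Incenp, the scaffold, had 33.3, 24, 26.7 and 22.9 TPM (1.33-fold, not called).

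The 4 spindle checkpoint genes were all called. Ttk, the kinase Mps1 that starts checkpoint signalling, had 2.08, 0.11, 1.24 and 0.28 TPM from 94, 5, 79 and 19 counts, a range of 18.9-fold. Its lowest library rests on 5 counts, and the range was 6.72-fold without replicate 2 and 12.1-fold without replicate 1. Bub1, a checkpoint kinase at the kinetochore, had 3.91, 1.79, 2.8 and 0.51 TPM, a range of 6.87-fold that was 3.39-fold without replicate 4. Bub1b, which codes for BubR1, an inhibitor of the APC/C, had 4.08, 1.39, 3.74 and 1.72 TPM. These 2 genes kept the common order, but the deposited credibility intervals of replicates 1 and 3 overlapped those of replicate 2. Such an interval need not hold the TPM printed here: Racgap1 in replicate 1 had 9.58 TPM and an interval of 9.67 to 13.1. Mad2l1, which codes for Mad2, the checkpoint protein that holds back Cdc20, was much higher than the other 3, with 26.6, 15.4, 32.8 and 13.9 TPM. It had the narrowest called range of the 32 genes, 2.1-fold, and 1.69-fold without replicate 3, which is below the 2-fold level.

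Both APC/C genes of the list had the common order. Cdc20, the activator of the complex and the target of the checkpoint, had 1.75, 0.53, 2.74 and 0.8 TPM from 47, 16, 104 and 23 counts, the fewest counts of the 32 genes, and its range of 5.3-fold was 3.16-fold without replicate 3. Ube2c, the ubiquitin-conjugating enzyme that starts the chains, had 7.47, 0.86, 12.3 and 1.75 TPM, a range of 14.4-fold that was 7.13-fold without replicate 2 and 8.22-fold without replicate 3. No core subunit of the complex was called. Of 28 further genes of the APC/C and of mitotic entry and exit, 7 (25%) were called, below the 32.9% of all genes tested: Cdc25c, Mastl, Fbxo5, Pkmyt1, Wee1, Cdc25a and Cdc25b, all regulators. Ube2s, which extends the chains, had 99, 66.8, 105 and 80.7 TPM, a range of 1.46-fold. Fzr1, the activator Cdh1 that works in late mitosis and G1, had 11.9, 11.9, 12.1 and 11.6 TPM, a range of 1.03-fold. Cdc20 and Fzr1, which bind the same complex, therefore had ranges of 5.3-fold and 1.03-fold.

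Of the kinetochore genes, Ndc80, Nuf2 and Spc25, subunits of the complex that binds microtubules, shared the common order. Ndc80 had 6.34, 1.02, 5.5 and 0.93 TPM, Nuf2 had 6.15, 2.02, 6.2 and 1.67 TPM, and Spc25 had 11.2, 2.73, 10 and 2.06 TPM. The fourth subunit, Spc24, is not among the 32 genes and had 3.68, 0.09, 1.64 and 0.21 TPM, the same 2 libraries high. Cenpe, a kinesin of the kinetochore, had 3.35, 1.72, 4.54 and 0.92 TPM. Cenpf, a large protein of the outer kinetochore, had 1.06, 0.06, 2.01 and 0.1 TPM from 96, 12, 193 and 28 counts. Its range was 12.9-fold in scaled counts (7.34-fold without replicate 2 and 8.48-fold without replicate 3) and 33.5-fold in TPM. The short annotated transcript Cenpf-202 took 52.8% of the TPM in replicate 1 and 65.3% in replicate 3. These shares rest on 1.17 and 3.45 estimated counts, because TPM is a level per length of transcript. The long coding Cenpf-204 had 94.8 and 190 counts in the same libraries. The wider range in TPM thus rests in part on few counts.

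Cenpa went the other way. It codes for the histone H3 variant that marks centromeres, lies on chromosome 5 from 30666777 to 30674830 (mm10, plus strand), and had the highest mean level of the 32 genes, with 8.4, 95.7, 45.8 and 67.4 TPM from 143, 1779, 1102 and 1673 counts. Replicates 2 and 4 were above replicates 1 and 3, the reverse of the common order, and replicate 1 was lowest by a wide margin. The deposited credibility intervals were 7.61 to 12.6, 87.4 to 99.6, 41.7 to 49.7 and 63.2 to 71.9 TPM, so no 2 libraries overlapped. The log2 ratio was -3.5 for replicate 1 over 2 and -0.53 for replicate 3 over 4. Its range of 11.3-fold rested on replicate 1 and was 1.93-fold without it, not called. The loading factors of CENP-A did not follow it: Hjurp, its chaperone, had 7.68, 3.61, 4.15 and 3.77 TPM, Mis18a had 13.4, 10.5, 9.38 and 9.87 TPM, and Oip5 had 4.36, 0.39, 2.72 and 0.87 TPM.

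The transcripts of Cenpa were not all coding. Of its 10 annotated transcripts, Cenpa-202, annotated as a target of nonsense-mediated decay, had 3.77, 60.4, 19 and 40.8 TPM in replicates 1 to 4. Cenpa-205, annotated as protein-coding, had 3.78, 29.8, 21.5 and 23.7 TPM. Transcripts of the decay class took 54.5%, 66.9%, 44.4% and 62.6% of the gene's TPM, so their share was larger in replicates 2 and 4. In these values the protein-coding Cenpa-205 alone kept replicate 1 as the lowest library and replicate 2 as the highest. In the second transcript table Cenpa-202 took 48.1%, 60.3%, 46.1% and 63% of the gene, and it was the highest transcript there too. Cenpa-205 had 2.13, 16.2, 16.7 and 17.1 TPM there. Replicate 1 was again its lowest library, but replicate 4 was its highest and replicate 2 was below replicate 3.

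**Figure D3:**
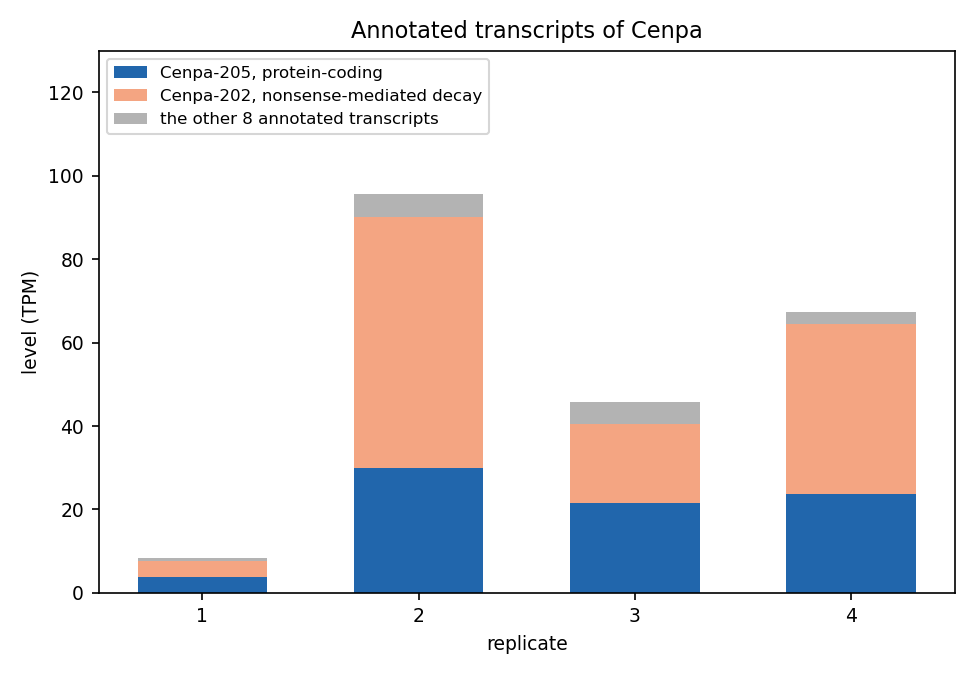
Level (TPM, bars from 0) of the annotated transcripts of Cenpa in replicates 1 to 4, stacked by transcript. The decay-class Cenpa-202 reaches 60.4 TPM in replicate 2, where the protein-coding Cenpa-205 has 29.8 TPM; in replicate 1 both are under 4 TPM.

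The 4 genes of spindle assembly were all called, with replicates 1 and 3 high. Kif11, the motor Eg5 that pushes spindle poles apart, had 4.65, 0.85, 2.73 and 0.59 TPM. Tpx2, which activates Aurora A on the spindle, had 9.64, 2.52, 7.7 and 2.99 TPM. Kif2c, the depolymerase MCAK that corrects attachments, had 1.84, 0.2, 1.67 and 0.28 TPM. Nusap1, a microtubule-bundling protein, had 3.36, 0.81, 4.84 and 0.73 TPM. Ranges in scaled counts were 3.73-fold for Tpx2 to 8.73-fold for Kif2c. That of Kif11 went from 7.05-fold to 4.5-fold without replicate 1, and that of Nusap1 from 6.34-fold to 3.99-fold without replicate 3.

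The genes of the central spindle and cytokinesis were divided. Prc1, which bundles midzone microtubules, had 7.8, 1.23, 8.81 and 1.51 TPM. Kif20a, the midzone kinesin Mklp2, had 2.75, 0.82, 3.67 and 1.33 TPM. Anln, the scaffold anillin, had 4.43, 0.92, 3.85 and 0.68 TPM, and Ect2, the exchange factor that activates RhoA at the furrow, had 3.88, 0.49, 1.91 and 0.84 TPM. These 4 were called, with ranges of 5.76-fold to 8.56-fold. Kif20a was at 4.51-fold without replicate 2, and Ect2, at 7.66-fold with all libraries, was at 4.09-fold without replicate 1 and 4.17-fold without replicate 2. Kif23 and Racgap1, which together form the centralspindlin complex that recruits Ect2, were not called. Kif23 had 13.8, 14.7, 16.5 and 15.9 TPM, a range of 1.27-fold and the narrowest of the 32 genes. Racgap1 had 9.58, 6.47, 9.72 and 6.2 TPM, a range of 1.71-fold, in the common order. In Kif23 a short annotated processed transcript, Kif23-212, took 38.7%, 39.6%, 45.8% and 40.7% of the TPM. The long coding Kif23-201 had 5.5, 5.59, 6.41 and 4.87 TPM.

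Top2a, topoisomerase II alpha, which untangles sister chromatids, had 32.5, 3.84, 19.4 and 4.53 TPM, a range of 7.39-fold (4.68-fold without replicate 1). Mki67, which codes for Ki-67, the coat of mitotic chromosomes and a common marker of dividing cells, had 38.3, 49.2, 34.6 and 27.7 TPM from 6463, 9473, 8352 and 7102 counts. It was the most counted of the 32 genes and was highest in replicate 2, and its range of 1.68-fold was not called. Nearly all of it was the full coding transcript Mki67-201 (98.1% to 100% of the gene's TPM). Ki-67 and Top2a, both used to mark dividing cells, thus ordered the libraries differently.

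Within each pair of libraries with the same number of read files, the mitosis genes differed in the same direction. Replicate 1 was above replicate 2 in 29 of 32 genes, against 50.8% of all genes tested, with Cenpa, Mki67 and Kif23 as the exceptions. Replicate 3 was above replicate 4 in 31 of 32, against 45.6%, with Cenpa as the exception. The difference was at least 2-fold in 26 genes in the first pair (11.5% of all genes) and in 25 in the second (6.19%). Median log2 ratios were 1.97 and 2.12, beside 0.01 and -0.05 over all genes. Between replicates 1 and 3, 29 of 32 genes (90.6%) were within 2-fold, against 83.3% of all genes, and between replicates 2 and 4, 30 (93.8%) were, against 94.8%, so both counts were near the share of all genes. The counts of 29 and 31 were the same in TPM, with other size factors and in the second transcript table, alternatives chosen after the data were seen.

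**Figure D4:**
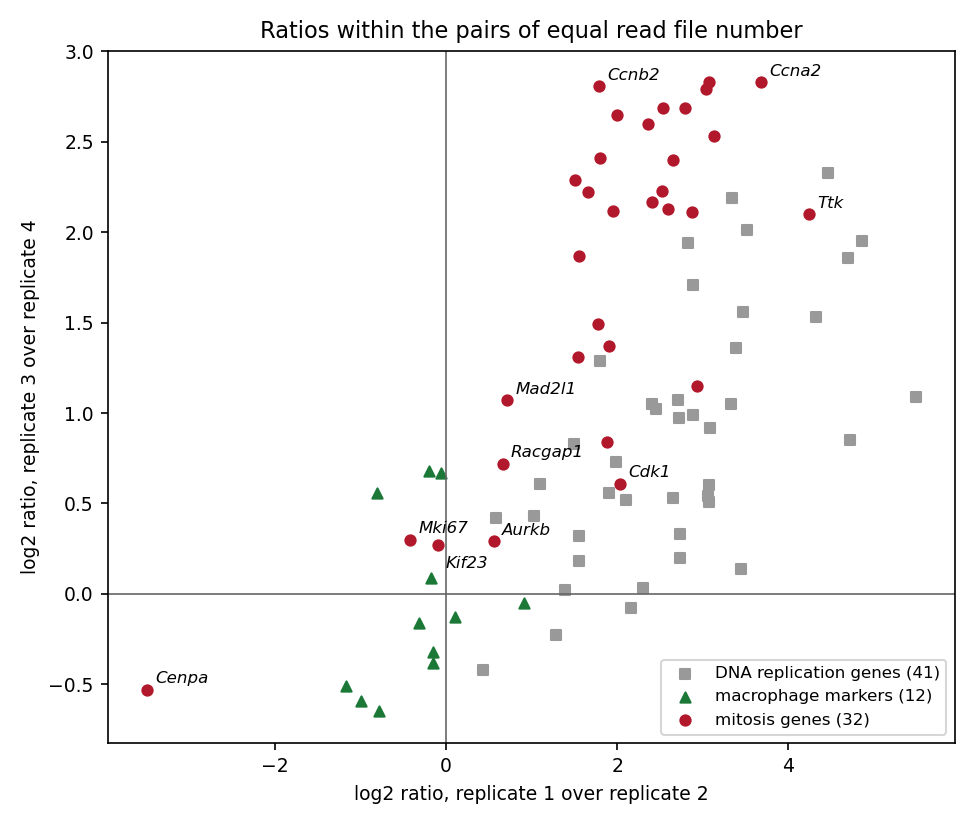
log2 ratio of scaled counts of replicate 1 over 2 (horizontal) and of replicate 3 over 4 (vertical), 1 point per gene, for 32 mitosis genes, 41 DNA replication genes and 12 macrophage markers. Mitosis genes lie mostly at the upper right, at medians of 1.97 and 2.12, DNA replication genes further right and lower, at 2.74 and 0.83, and Cenpa alone of the mitosis genes is below 0 on both axes.

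The order of the 4 libraries was alike in most mitosis genes. Beyond the common order in TPM, the deposited credibility intervals of replicates 1 and 3 lay above those of the other 2 libraries in 20 genes (6.61% of all genes). This order was read from the data, so it is a description and no test was made of it. Of the 32 genes, 15 were highest in replicate 1, 15 in replicate 3, and Cenpa and Mki67 in replicate 2. The median deviation from the mean of the 4 libraries was 0.64, -0.8, 0.73 and -0.67 on the log2 scale. Summed TPM of the 32 genes was 330, 232, 325 and 188. Cenpa, Mki67 and Kif23 held 18.3%, 68.8%, 29.8% and 59.2% of that sum, and the other 29 genes summed to 270, 72.2, 229 and 76.6 TPM. Those 3 genes were set apart because they were not higher in replicate 1 than 2, so the sums are given as a description.

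No mitosis gene was called between libraries that list different numbers of read files. With edgeR's quasi-likelihood test of replicates 3 and 4 against 1 and 2, 0 of 12701 genes passed an adjusted p of 0.05 (0% called), and 290 had an unadjusted p under 0.05. None of the 32 genes passed, and 0 had an unadjusted p under 0.05. DESeq2 called 37 genes, none of them a mitosis gene. Without replicate 2, edgeR called 98 of 13328 genes (0.735%), among them Cenpa, at a log2 ratio of 2.87 for the libraries of 4 over the library of 6 files (adjusted p = 0.0284, replicate 1 assumed to vary like the others).

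The common order was also frequent in further mitotic genes. Of 35 further centromere and kinetochore genes, 24 (68.6%, against 32.9% of all genes tested) were called, and 30 had both replicate 1 and replicate 3 above the other 2 in scaled counts (24.3% of all genes tested). Examples were Cenpk, of the inner kinetochore (9.42, 0.94, 5.02 and 0.57 TPM, 8.5-fold), and Ska1, of the Ska complex that tracks microtubules (1.14, 0.07, 1.33 and 0.02 TPM, 37.5-fold). The range of Ska1 rests on 29, 3, 53 and 1 counts. Zwint, the highest of that list, had 70.6, 43.6, 58.1 and 48.8 TPM, a range of 1.47-fold that was not called. Of 29 further spindle and cytokinesis genes, 23 (79.3%) were called, with median log2 ratios of 1.5 and 1.31 in the pairs, and 23 had that order. Rhoa and Iqgap1, which act in the cytoskeleton of all cells, were flat at means of 335 and 281 TPM. Of 21 cohesin and condensin genes, 10 (47.6%) were called, 12 had the common order and 3 the reverse (3362 of the 12626 genes tested). The range was wide for Esco2 (10.1-fold) and Ncapg (6.27-fold) and narrow for the cohesin core Rad21 (1.18-fold).

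Genes of DNA replication had the common order too, in 38 of 41 (24.3% of all genes tested), and 39 of 41 (95.1%) were called. All 41 were highest in replicate 1 (5040 of the 12626 genes tested). Their median log2 ratio was 2.74 for replicate 1 over 2 and 0.83 for replicate 3 over 4, and 1.53 for replicate 1 over 3, where the mitosis genes had -0.05. Mcm5, of the replicative helicase, had 62.1, 3.24, 12.7 and 4.36 TPM, and Pcna, the sliding clamp, had 653, 174, 377 and 252 TPM. Summed TPM of the replication genes was 1679, 373, 723 and 468. The 29 mitosis genes other than Cenpa, Mki67 and Kif23 came to 16.1%, 19.4%, 31.6% and 16.4% of that sum, highest in replicate 3. All 32 mitosis genes came to 19.7%, 62.2%, 45% and 40.1% of it, highest in replicate 2, so the order of this ratio depends on those 3 genes. The lists were not tested against each other.

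**Figure D5:**
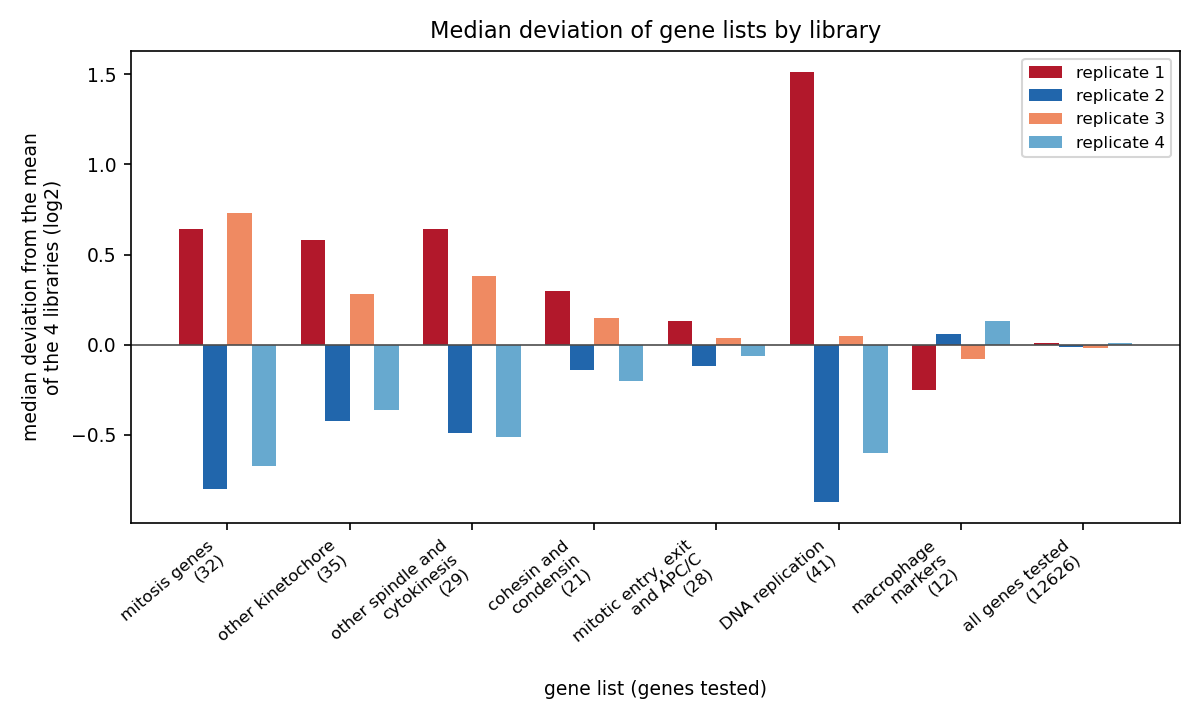
Median deviation (log2, bars from 0) of each gene list from the mean of the 4 libraries, by replicate, over the genes tested (number in brackets). Mitosis genes are at 0.64 in replicate 1 and 0.73 in replicate 3, DNA replication genes at 1.51 and 0.05, and all genes tested within 0.02 of 0.

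Of 24 transcriptional regulators of the cell cycle, 8 were called (33.3%), near the 32.9% of all genes tested. Foxm1, the transcription factor that drives late cell cycle genes, had 2.67, 0.74, 2.45 and 0.8 TPM, in the common order (3.47-fold, called). Mybl2, which codes for B-Myb, had 3.71, 0.62, 1 and 0.72 TPM (15.6-fold, called), and was highest in replicate 1. The subunits of the DREAM core Lin9, Lin37, Lin52 and Lin54 and the NF-Y subunits Nfya, Nfyb and Nfyc were not called. Their ranges were 1.12-fold (Nfya) to 1.73-fold (Lin9). Of other genes in that list, Rbl1 and Tfdp1 were called (2.47-fold and 2.5-fold), both highest in replicate 1. Rbl2 and E2f4 were not called (1.69-fold and 1.59-fold). A list of G1 genes and inhibitors of the G1 kinases also held Csf1, macrophage colony-stimulating factor, and its receptor Csf1r. Of the 14 genes tested from it, 10 were called (71.4%), 4 had the common order (24.3% of all genes tested) and 6 the reverse (3362 of the 12626). Csf1 and Csf1r were among those 6, and Csf1r is also among the macrophage markers below. Ccnd1, cyclin D1, the growth factor sensor of G1, had 278, 9.88, 32.5 and 13.8 TPM. Cdkn1b, which codes for the inhibitor p27, had 8.87, 26, 13 and 30.1 TPM, and Cdkn1a, which codes for p21, had 875, 1397, 649 and 1259 TPM. Both inhibitors were higher in replicates 2 and 4, as was the called Cdkn2d, with 4.48, 10.1, 6.42 and 7.83 TPM. The remaining called inhibitors were not. Cdkn1c, which codes for p57, had 12.4, 21.2, 29.8 and 88.2 TPM, neither the common order nor its reverse. Cdkn2b, which codes for p15, had the common order, with 1.21, 0.22, 0.47 and 0.34 TPM from 24, 5, 13 and 10 counts.

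Markers of cell types were set beside these values. All 12 macrophage markers had at least 1 TPM in every library, 3 were called (25%, against 32.9% of all genes tested), and 6 had the reverse of the common order. That reverse was present in 3362 of the 12626 genes tested. Csf1r, the receptor of the macrophage growth factor, had 526, 1155, 625 and 852 TPM, and Lyz2, lysozyme, had 14541, 28530, 14293 and 21375 TPM, both higher in replicates 2 and 4. The third called marker, Mertk, a receptor for the uptake of dead cells, had 41.1, 73, 97.7 and 60 TPM and was highest in replicate 3. Of 15 markers of granulocyte precursors, 13 were highest in replicate 3 (2232 of the 12626 genes tested). Only 9 of the 15 had enough counts to be tested, and 6 were below 1 TPM in every library. The 15 summed to 240, 146, 779 and 90 TPM. Most of that was S100a8, at 74, 36.8, 181 and 22 TPM, and S100a9, at 101, 61.6, 457 and 41.9 TPM. Ngp had 17.6, 6.44, 66.3 and 3.67 TPM. Mpo, a defining marker of early granulocyte precursors, had 0.61, 0.08, 1.13 and 0.09 TPM from 16, 4, 61 and 2 counts. Fcnb was at 0 in replicate 2. Of 7 dendritic cell markers, 6 were also highest in replicate 3 and 1 in replicate 2. The summed granulocyte level was higher in replicate 1 than 2 and in replicate 3 than 4, as the mitosis genes were, and its part in the mitosis values was not tested.

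Other deposited estimates bear on single values. The highest transcript was protein-coding in 29 of 32 genes, over 197 annotated transcripts, and was the same in both transcript tables in 30, the exceptions being Cenpf and Prc1. In Cdk1 the highest transcript was Cdk1-204, annotated as a retained intron, with 38.7, 6.83, 21.9 and 9.99 TPM, next to 35.5, 8.62, 13.5 and 9.93 TPM for the coding Cdk1-202, and both had replicate 1 highest. Without a stated strand setting, reads of genes that overlap on opposite strands cannot be told apart: Ccna2 overlaps Exosc9 (26.6 TPM on average), Cdc20 overlaps Elovl1 (110 TPM), Kif20a overlaps Cdc23 (9.3 TPM), Nusap1 overlaps Oip5 (2.08 TPM) and Prc1 overlaps Rccd1 (1.71 TPM). Kif20a had a range of 8.56-fold in scaled counts but 4.48-fold in TPM. Replicate 2, its lowest library, held 0.82 TPM from 27 counts, so shares there rest on few reads. A transcript annotated as a retained intron took 46.3% of the Kif20a TPM in replicate 2, against 0% in replicates 1, 3 and 4. What part this or the overlap had in that gap was not tested.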

How the data were processed

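Polyadenylated RNA of 4 libraries was analysed from the deposited tables of mm10 with GENCODE M21 annotation, per the file headers and the text lists beside them. The gene tables hold, per the file headers, the authors' expected counts and TPM with posterior mean TPM and credibility bounds, here called signal values, and the transcript tables give each transcript's percent of its gene. A second transcript table, deposited by the authors, gives estimated counts and TPM of another quantification. For the aligner, the quantifier, versions and strandedness: not given in the sources used here. Of 81881 rows, 26345 that name no gene (0.103% to 0.118% of counts) were left out.

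Expected counts were rounded and scaled by TMM (edgeR 4.0.16). Each gene's 4 counts were tested by chi-square against effective library size (SciPy 1.17.1), Benjamini-Hochberg adjusted over the 12626 genes whose counts averaged 10 or more, and ranges and ratios were taken after adding 0.5 to each count. Deviations are on log2(CPM + 1). Libraries of 4 against 6 read files were compared by edgeR's quasi-likelihood test and, as an alternative, DESeq2 1.42.0; its p-values reflect the spread of these 4 libraries alone, which may be technical. Both tests were tried on simulated data. For the edgeR test the simulated spread between libraries was smaller than that of these data (coefficient of variation 0.31). That trial therefore does not tell what the comparison by read files could detect here. Values are printed for all 32 genes, and from the other lists for genes high in mean TPM, wide in range or in a list of 15 or fewer, and for partners of a listed gene, which were chosen after their values were seen. The genes, lists and motifs were chosen with earlier results of these data known. RefSeq promoter windows were matched by symbol. Other normalization, filters, the second table and leaving out each library were tried.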

Additional observations from a re-analysis of the deposited data

How the results depend on the processing

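The count of 28 mitosis genes called was 26 to 29 with DESeq2 size factors, no count filter, the second transcript table, ribosomal and mitochondrial genes left out, or any replicate left out (lowest 26, without replicate 1, highest 28), where 16% to 36.1% of all genes were called, and 31 at a range of 1.5-fold, where 58.1% were. Cdk1 and Cenpa fell below 2-fold without replicate 1 and Mad2l1 without replicate 3, at the values given above; Aurkb reached 2.04-fold in the second table. By posterior mean TPM, 25 rather than 16 genes had at least 1 TPM in every library. With replicates left out, that count was 16 to 19. The number highest in replicate 1 was 15; it was 10 in the second table, 14 on CPM, 18 with ribosomal and mitochondrial genes left out, and 15 to 29 with a replicate left out (29 without replicate 3). Summed TPM in replicates 1 to 4 was 235, 167, 275 and 160 in the second table, where replicate 3 and not replicate 1 was highest. Between libraries of 6 and of 4 read files, leaving out a replicate gave 0 to 1 mitosis genes. Median deviations kept their sign in every alternative run but changed in size with a replicate left out, from 0.4 to 0.99 in replicate 1, -0.57 to -1.04 in replicate 2, 0.49 to 0.97 in replicate 3 and -0.38 to -0.96 in replicate 4, and with another pseudocount (0.32 to 0.92 in replicate 1). The causes were not tested. No paired analysis was possible because the labels give a single group. Precision is limited by the 4 libraries and, below about 1 TPM, by low counts. These were as low as 5 in the mitosis genes and lower in other lists, such as 1 for Ska1 in replicate 4.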

Other observations

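A few other chromosome genes had the reverse order that Cenpa had, an order present in 3362 of the 12626 genes tested. Ncapg2, a subunit of the condensin II complex that folds mitotic chromosomes, had 19.7, 69.4, 29.1 and 42 TPM in replicates 1 to 4, a called range of 3.81-fold. The other condensin II subunits did not share it: Ncapd3 had 9.83, 4.02, 4.75 and 2.98 TPM, and Ncaph2 had 35.6, 26.5, 29.7 and 29.1 TPM, the latter not called. Pttg1, which codes for securin, the inhibitor of separase, had 35.7, 59.6, 41.5 and 58.3 TPM at an uncalled range of 1.72-fold, while Espl1, which codes for separase itself, had 2.95, 1.46, 6.3 and 1.33 TPM at a called 4.79-fold. Cdc25b, a phosphatase that activates Cdk1, had 5.28, 8.83, 6.66 and 10.1 TPM, called at 2.11-fold. Cdc25c, of the same family, had 1.11, 0.09, 0.96 and 0.11 TPM from 23, 3, 37 and 5 counts, called at 8.96-fold. These genes were singled out after their values were seen, and no explanation was tested.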
